A study of Mus musculus with 6 samples.

Results

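The 44 genes described here encode enzymes and transporters of glycolysis, enzymes of the pentose phosphate pathway, the oxygen sensors and transcription factor subunits of the hypoxia response, and genes that hypoxia is known to raise. They were taken by gene symbol from a table of 15469 protein-coding genes, by a rule that names no measured value. All 44 were in the table, and 43 had enough counts to be tested among 11424 genes. RNA had been sequenced from 6 libraries of macrophages washed from the peritoneal cavity of mice. All cells came from mice of a model that the labels name only as CAIA, were sorted by surface RELM-α, a small resistin-family protein that macrophages make during alternative activation, and were plated in culture. The 3 libraries of the KO group were from cells that the labels call PU.1-deleted; PU.1 is the ETS-family transcription factor of myeloid cells encoded by Spi1. The 3 of the WT group were from control cells. The sources used here do not give how PU.1 was deleted, or the strain, age and sex of the mice. The study's stated interest is the part of PU.1 in ferroptosis, death of cells by iron-driven lipid oxidation.

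Glycolysis splits glucose into pyruvate in the cytosol, and macrophages are known to lean on it when they are activated. The pentose phosphate pathway branches off at glucose 6-phosphate and supplies NADPH, which macrophages spend on glutathione recycling, lipid synthesis and the oxidative burst. Under low oxygen the prolyl hydroxylases slow down, the HIF α subunits escape the ubiquitin ligase that holds VHL, pair with ARNT and raise genes for glucose uptake, lactate production, vessel growth and mitochondrial turnover.

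The libraries held 17280855 to 18632623 counts. Levels are given as CPM, a gene's counts over the library total scaled by the TMM method, in parts per 1e6, with the SD of 3 libraries, or, where genes are compared with one another, as the deposited TPM, which also takes account of transcript length. Spi1 transcript was not lost from the libraries labelled KO: 276.9, 285.5 and 319.7 CPM stood there beside 323.4, 340.2 and 283.7 CPM in the libraries labelled WT. A gene count does not separate exons, and a deletion of part of the gene may or may not show in it, so every direction below is one between labels. KO replicate 1 stood apart: Pearson's r of log2 CPM across genes was 0.902 and 0.922 to its fellow KO libraries, 0.955 to 0.959 to WT, and 0.990 between KO replicates 2 and 3. All 8 macrophage markers examined were present in every library, but Lyz2, the lysozyme gene, was at 13171 CPM in KO replicate 1 against 29743 to 36709 CPM in the other 5. The other 7 summed to 6748 CPM in KO replicate 1, 7960 and 8002 CPM in the other KO libraries and 5619 to 5784 CPM in WT. The summed level of 4 Y-linked genes was 0.0513 to 0.44 CPM in the KO libraries and 125.0 to 171.0 CPM in the WT libraries, so a difference between the mice or cells that goes with the Y chromosome cannot be told apart from the label. The 3 members on the X chromosome, G6pdx, Pgk1 and Pdk3, were not called. The labels do not say whether replicates are separate animals or cultures, so a p-value here covers only the spread of these samples, which may be technical.

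Few of these genes differed between the labels beyond the spread of the libraries. Of the 43 tested, 3 passed the test (edgeR quasi-likelihood, Benjamini-Hochberg adjusted p under 0.05 over all genes), which is 6.98% against 3.32% of all genes tested. Hk1 and Pfkm, a hexokinase and a phosphofructokinase that act at the controlled early steps of glycolysis, rose (2 of 43, where 2.26% of all genes were called higher). Bnip3l, a mitochondrial outer membrane protein that marks mitochondria for removal, fell (1 of 43, where 1.06% of all genes were called lower). The median log2 difference of the members, KO minus WT, was 0.07 against -0.01 over all genes, and 25 of 43, or 58.1%, were above 0 against 49.3%. With a correction for GC content and length, the members' median turned to -0.09 against -0.08 over all genes, and 16 of 43, or 37.2%, were above 0 against 40.7%. The libraries of the groups did not overlap for 11 members that were higher and 5 that were lower in KO, which is 25.6% and 11.6% where the shares over all genes were 18.4% and 12.6%. The plot of all tested members by library shows how narrow most of these differences were.

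**Figure D1:**
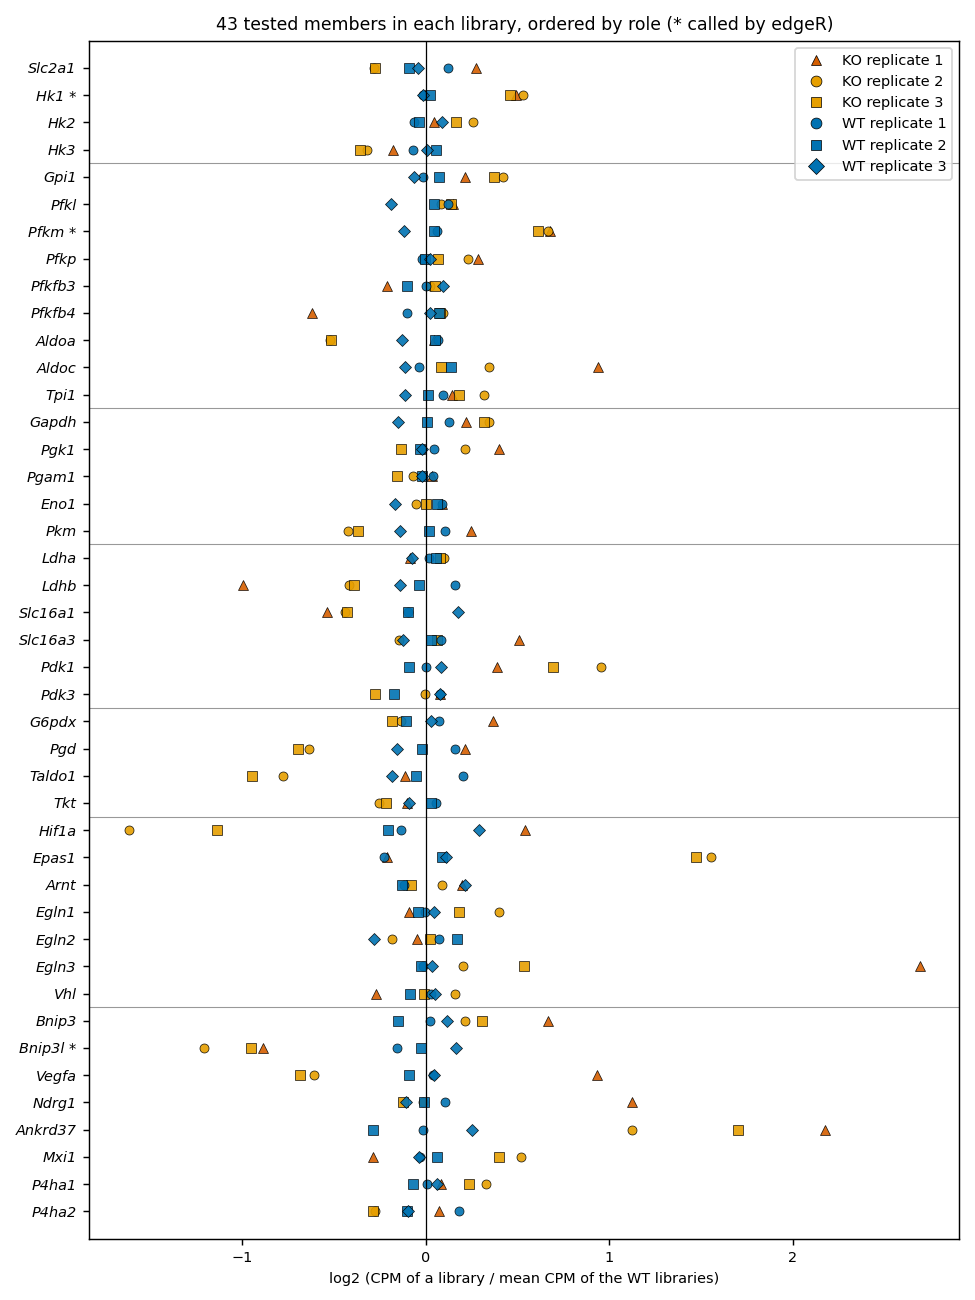
Each of the 43 tested members in each of the 6 libraries, as log2 of the library's CPM over the mean CPM of the 3 WT libraries (x axis), with genes in order of role (y axis, lines between roles) and an asterisk at the 3 members called by edgeR. The 3 KO points of Hk1 and Pfkm lie together to the right of all WT points and those of Bnip3l to the left, while KO replicate 1 (triangles) lies away from KO replicates 2 and 3 for genes such as Hif1a, Epas1, Vegfa, Ndrg1 and Egln3.

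Promoter sequences were searched for the letters of the HIF core site and of a PU.1 core, because some of these genes are known HIF targets and the labels name PU.1. In the RefSeq windows of GRCm38.p6, from 250 bases before to 50 after each start, 41 of the 44 members had an entry (Epas1, Bnip3l and Ndrg1 had none). ACGTG or GCGTG, on either strand, was present in at least 1 window of 38 of the 41 genes, or 92.7%, against 46.7% of the 27025 genes of the table. Counted by window, it was 81.4% of 59 windows against 43.8% of 32851. The windows of the members were also richer in G and C, at a mean of 61.3% against 53.8%, and a match is a description of letters only. Gpi1, Tpi1 and Vhl were the members without either core in these windows. The PU.1 core GAGGAA, on either strand, was in windows of 13 of the 41 genes, or 31.7%, against 31.3% of all genes, so these letters were about as common in the members as elsewhere. Matches can share letters, as ACGTG does with its reverse complement in the palindrome CACGTG, and each is then counted.

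The stretches shown are the 250 bases before the start, 5′ to 3′ on the gene's strand, with every match to the HIF or PU.1 letters named above, on either strand, in capitals. They were chosen to set the 2 starts of Hk1 and the first of Pfkm, the members that rose, beside Ldha, a gene long known for its HIF sites. Ankrd37 and Bnip3 were added from the 11 members whose KO libraries lay above all WT libraries, as did those of 18.4% of all genes. Pdk1 and Egln3 are also among the 11 and are not shown. The first window of Pdk1 held 2 matches of GCGTG and no ACGTG, and that of Egln3 held 1 of ACGTG and 2 of GAGGAA.
Hk1, start 1, chr10:62379909-62380158, minus strand: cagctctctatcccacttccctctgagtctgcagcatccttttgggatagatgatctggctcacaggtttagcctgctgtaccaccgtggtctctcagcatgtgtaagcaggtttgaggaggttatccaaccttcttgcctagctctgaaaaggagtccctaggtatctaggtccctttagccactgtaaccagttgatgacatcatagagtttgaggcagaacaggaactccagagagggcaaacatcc
Hk1, start 2, chr10:62340422-62340671, minus strand: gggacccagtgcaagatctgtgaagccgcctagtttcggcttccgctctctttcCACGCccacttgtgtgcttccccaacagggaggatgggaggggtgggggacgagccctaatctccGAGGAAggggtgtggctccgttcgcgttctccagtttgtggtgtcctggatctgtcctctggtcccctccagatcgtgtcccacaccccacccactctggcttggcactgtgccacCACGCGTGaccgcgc
Pfkm, start 1, chr15:98092339-98092588, plus strand: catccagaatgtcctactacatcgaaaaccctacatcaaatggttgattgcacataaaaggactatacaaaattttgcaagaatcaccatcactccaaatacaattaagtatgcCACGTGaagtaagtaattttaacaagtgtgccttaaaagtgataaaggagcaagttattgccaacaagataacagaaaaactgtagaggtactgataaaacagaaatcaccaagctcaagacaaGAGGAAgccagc
Ldha, start 1, chr7:46845554-46845803, plus strand: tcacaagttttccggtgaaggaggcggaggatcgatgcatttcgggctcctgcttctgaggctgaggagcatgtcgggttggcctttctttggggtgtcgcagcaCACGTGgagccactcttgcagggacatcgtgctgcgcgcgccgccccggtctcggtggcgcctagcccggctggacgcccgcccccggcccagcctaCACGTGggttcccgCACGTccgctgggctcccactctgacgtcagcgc
Ankrd37, chr8:45999851-46000100, minus strand: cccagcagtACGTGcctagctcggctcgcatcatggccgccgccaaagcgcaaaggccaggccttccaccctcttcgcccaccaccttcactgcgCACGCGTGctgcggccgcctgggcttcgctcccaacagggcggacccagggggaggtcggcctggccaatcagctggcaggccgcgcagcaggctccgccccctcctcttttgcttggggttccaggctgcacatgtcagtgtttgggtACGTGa
Bnip3, chr7:138909507-138909756, minus strand: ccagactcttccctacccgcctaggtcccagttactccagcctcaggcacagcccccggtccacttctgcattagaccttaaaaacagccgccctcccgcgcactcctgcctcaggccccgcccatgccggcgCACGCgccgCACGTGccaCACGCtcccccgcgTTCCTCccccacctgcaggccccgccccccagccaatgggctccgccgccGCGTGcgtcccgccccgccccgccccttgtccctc
In the 250 bases shown, the upstream start of Hk1 held no match, and its downstream start held 3 of GCGTG and 1 of GAGGAA. Ldha held 5 matches of ACGTG, counting the palindrome on both strands. Pfkm held 2 matches of ACGTG, again a palindrome, and 1 of GAGGAA. The whole windows searched, to 50 bases after the start, held more. They had 2 matches of ACGTG at the downstream start of Hk1, 3 of ACGTG at the first start of Pfkm and 2 of GCGTG at the first start of Ldha. The count table has 1 value per gene, so which start was in use was not measured.

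At the entry of glucose into glycolysis, 1 of 4 members was called, the hexokinase gene Hk1, where 2.26% of all genes were called higher. Hk1 (gene ID 15275, GRCm38 chromosome 10, 62268855 to 62379920), the broadly expressed hexokinase that docks on mitochondria, had 141.3, 145.1 and 138.3 CPM in the KO libraries, in order of replicate number, and 99.6, 102.3 and 99.6 CPM in the WT libraries. All 3 KO libraries, KO replicate 1 included, lay within a few CPM of one another and above every WT library. Mean levels came to 141.6 ± 3.41 CPM in KO and 100.5 ± 1.54 CPM in WT (SD, n = 3 each), 1.41-fold apart (log2 0.49, SE 0.0703, 95% interval 0.32 to 0.67, edgeR adjusted p = 0.0297). Hk3, the hexokinase typical of myeloid cells, was at 455.5, 412.9 and 401.8 CPM in KO and at 492.1, 535.1 and 518.7 CPM in WT. Every KO library was below every WT library, yet the difference did not pass the test (log2 -0.28, SE 0.0881, edgeR adjusted p = 0.134). Hk2, the isoform that HIF and growth signals are known to raise, was at 86.6 ± 6.44 CPM in KO and 77.5 ± 4.36 CPM in WT, and the libraries overlapped. Slc2a1, the glucose transporter GLUT1, was at 82.8, 56.3 and 56.5 CPM in KO and at 74.4, 64.3 and 66.6 CPM in WT. KO replicate 1 was the highest of the 6 and KO replicates 2 and 3 the lowest, and the group difference was small against that spread (log2 -0.07, SE 0.177, 95% interval -0.50 to 0.36, edgeR adjusted p = 0.819).

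Seen as shares of the summed TPM of the 3 hexokinases, Hk3 made up 74.2%, 71.1% and 71.7% in the KO libraries and 79.9%, 80.9% and 80.5% in the WT libraries. Hk1 took up most of the rest: 18.4%, 19.9% and 19.6% in KO against 13.1%, 12.5% and 12.2% in WT. Hk2 held 7.32%, 8.97% and 8.71% in KO and 6.999%, 6.57% and 7.25% in WT. None of these 3 shares overlapped between the labels. With 3 libraries against 3, an exact two-sided permutation test over the 20 assignments cannot give a p under 0.1, which each of these shares reached (adjusted p = 0.189 over the 17 shares of 11 gene families examined). A share within a sum must fall where another rises, so the 3 shares are not separate results.

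In upper glycolysis, from glucose 6-phosphate to the triose phosphates, 1 of 9 members was called and 4 of 9 had KO libraries above all WT libraries. Over all genes, 2.26% were called higher and 18.4% had KO libraries above all WT libraries. The median log2 difference of the 9 was 0.20. With the GC and length correction it was -0.02, against -0.08 over all genes, and 0 of the 9 were called. Pfkm (gene ID 18642, GRCm38 chromosome 15, 98092589 to 98132447), the muscle-type phosphofructokinase, was at 23.3, 23.2 and 22.3 CPM in KO and at 15.2, 15.0 and 13.5 CPM in WT. The KO libraries were again close together and apart from WT, with means of 22.9 ± 0.579 and 14.6 ± 0.972 CPM, a 1.57-fold difference (log2 0.65, SE 0.102, 95% interval 0.40 to 0.90, edgeR adjusted p = 0.0386). Its sister isoforms were not called. Pfkl, the liver type, was at 72.1 ± 1.74 and 66.1 ± 7.23 CPM, and Pfkp, the platelet type, at 75.6 ± 5.88 and 65.8 ± 1.05 CPM (KO and WT, edgeR adjusted p = 0.483 and 0.252). Pfkm stayed the least abundant of the 3 by TPM, at a share of 16.3% ± 0.286 in KO and 12.3% ± 0.395 in WT (exact permutation p = 0.1, the smallest possible). Gpi1, which interconverts glucose and fructose phosphates, was at 480.2, 554.3 and 534.0 CPM in KO and 409.4, 434.4 and 395.3 CPM in WT. Its groups did not overlap, and the 1.27-fold difference missed the threshold (log2 0.34, SE 0.0922, edgeR adjusted p = 0.105). Tpi1, the triose phosphate isomerase, showed the same order, with 216.5 to 244.7 CPM in KO and 181.3 to 209.2 CPM in WT (edgeR adjusted p = 0.236).

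In the remaining upper-glycolysis genes KO replicate 1 lay apart from the other KO libraries. Aldoa, the main aldolase of these cells, was at 1318 CPM in KO replicate 1, within the WT range of 1169 to 1342 CPM, and at 892.0 and 894.3 CPM in KO replicates 2 and 3. Aldoc, an aldolase known as a hypoxia target, was at 38.0, 25.2 and 21.0 CPM in KO and 18.3 to 21.7 CPM in WT. Neither passed the test (edgeR adjusted p = 0.347 for Aldoa and 0.263 for Aldoc). Pfkfb3 and Pfkfb4 make the fructose bisphosphate that activates phosphofructokinase. Pfkfb3 was at 68.5 ± 6.62 CPM in KO and 70.4 ± 4.76 CPM in WT. Pfkfb4 was at 39.1 CPM in KO replicate 1 and between 55.8 and 64.0 CPM in the other 5 libraries.

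Lower glycolysis, from glyceraldehyde phosphate to pyruvate, held no called member of 5. Gapdh, the dehydrogenase often used as a reference gene, had the smallest p of the group. It was at 1574, 1719 and 1684 CPM in KO and at 1475, 1360 and 1218 CPM in WT, a 1.23-fold difference without overlap that did not pass (log2 0.30, SE 0.106, 95% interval 0.04 to 0.55, edgeR adjusted p = 0.172). Pkm, the pyruvate kinase of these cells, was at 2779, 1746 and 1809 CPM in KO and at 2517, 2372 and 2126 CPM in WT. KO replicate 1 was the highest library and KO replicates 2 and 3 the lowest, so the group difference was near 0 beside a wide spread (log2 -0.15, SE 0.204, edgeR adjusted p = 0.664). The M1 and M2 forms of the kinase share this count and were not separated. Pgk1, Pgam1 and Eno1, the kinase, mutase and enolase between them, differed by log2 0.18, -0.06 and 0.02, with edgeR adjusted p of 0.472, 0.675 and 0.931. Gapdh, Pgam1, Tpi1, Aldoa and Ldha have processed pseudogenes of near-identical sequence, and the sources used here do not say how such reads were counted.

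The genes that decide the fate of pyruvate and lactate showed no call among 6. The groups did not overlap for 1 that was higher and 2 that were lower in KO. Over all genes the shares were 18.4% higher and 12.6% lower. Pdk1, a kinase that switches off pyruvate dehydrogenase and a known HIF target, was at 40.4, 60.0 and 49.99 CPM in KO and at 30.9, 29.0 and 32.7 CPM in WT. All KO libraries were above WT, KO replicate 1 the least, and the 1.62-fold difference was just short of the threshold (log2 0.70, SE 0.16, 95% interval 0.31 to 1.09, edgeR adjusted p = 0.0743). Its relative Pdk3 was level at 9.45 ± 1.18 and 9.84 ± 0.969 CPM. Pdk1 made up 61.7%, 73.5% and 73.3% of the summed TPM of both kinases in KO and 56.3%, 59.1% and 57.2% in WT. Ldha, which makes lactate from pyruvate, was at 417.5, 474.7 and 467.3 CPM in KO and at 448.2, 460.2 and 420.5 CPM in WT. KO replicate 1 was just below every WT library and KO replicates 2 and 3 just above them (log2 0.03, SE 0.09, 95% interval -0.19 to 0.25, edgeR adjusted p = 0.832). Ldhb, the subunit that favours the reverse reaction, was at 13.3, 19.9 and 20.2 CPM in KO and at 29.7, 25.9 and 24.1 CPM in WT, below WT in every library (log2 -0.58, SE 0.192, edgeR adjusted p = 0.152). The share of Ldha in the summed TPM of both subunits was 95.1% ± 0.743 in KO and 92.6% ± 0.618 in WT, without overlap (exact permutation p = 0.1). Slc16a1, the lactate and pyruvate carrier MCT1, was at 14.7, 15.7 and 15.8 CPM in KO and at 19.9, 19.9 and 24.1 CPM in WT (log2 -0.47, SE 0.121, edgeR adjusted p = 0.0959). Slc16a3, the lactate exporter MCT4, was at 64.1 CPM in KO replicate 1 and between 40.8 and 47.8 CPM in the other 5 libraries.

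**Figure D2:**
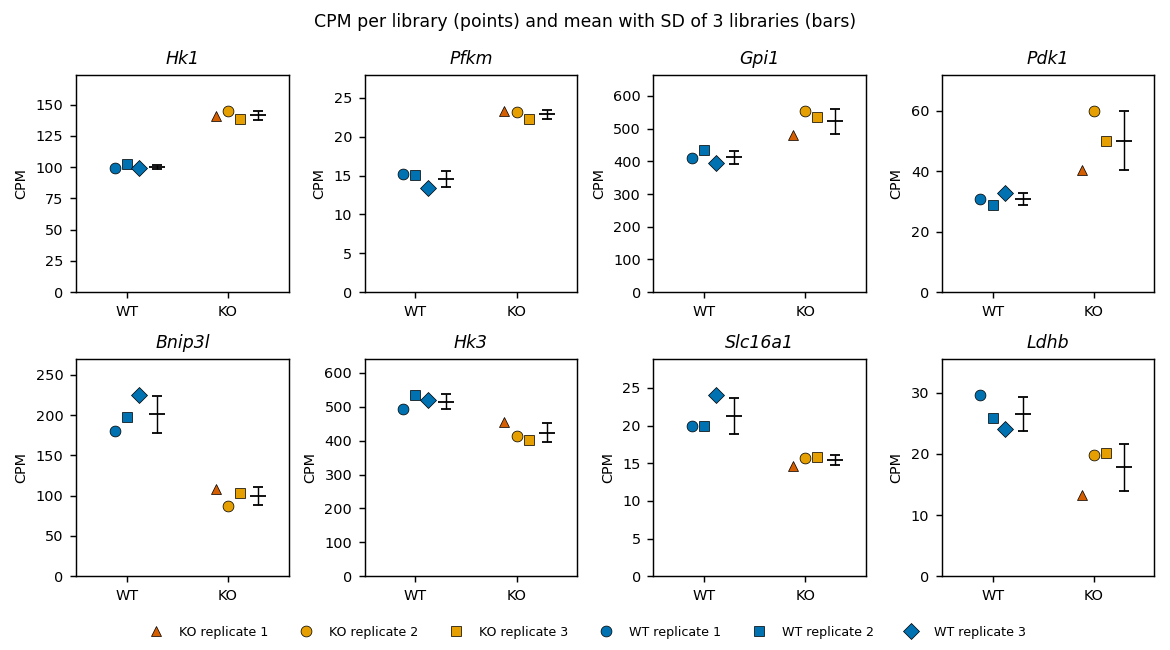
CPM (y axis, from 0) of 8 members whose 3 KO libraries lay apart from the 3 WT libraries; points are libraries and bars are the mean with the SD of 3 libraries. Hk1, Pfkm and Bnip3l are the called members, and in the other 5 panels the gap between the groups is narrower against the spread within them, as for Pdk1, where KO runs from 40.4 to 60.0 CPM.

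No pentose phosphate gene was called. G6pdx, the glucose 6-phosphate dehydrogenase that commits sugar to the pathway, was at 477.1, 336.9 and 325.2 CPM in KO and at 388.4, 342.8 and 378.0 CPM in WT. KO replicate 1 was the highest and KO replicates 2 and 3 the lowest of the 6 (log2 0.04, SE 0.168, 95% interval -0.37 to 0.45, edgeR adjusted p = 0.899). Pgd, the next NADPH-producing enzyme, was at 1485, 823.8 and 791.6 CPM in KO and at 1431, 1262 and 1150 CPM in WT. Taldo1, the transaldolase of the non-oxidative branch, had the smallest p of the 4, with 916.6, 578.2 and 514.1 CPM in KO and 1141, 955.7 and 872.0 CPM in WT. For both, KO replicates 2 and 3 were below every WT library and KO replicate 1 was within the WT range or above it. The Taldo1 difference did not pass with all 6 libraries (log2 -0.56, SE 0.246, 95% interval -1.17 to 0.04, edgeR adjusted p = 0.244). Without KO replicate 1 it was -0.84 (edgeR adjusted p = 0.00109), and that of Pgd was -0.65 (edgeR adjusted p = 0.00163). That fit called 49.6% of all genes, 26.0% of all genes as lower in KO. Tkt, the transketolase, was at 442.7, 398.5 and 409.4 CPM in KO and 494.6, 484.8 and 446.4 CPM in WT, below WT in every library by a small step (log2 -0.19, edgeR adjusted p = 0.259). The 4 genes together held 0.358%, 0.206% and 0.195% of all TPM in KO and 0.317%, 0.283% and 0.279% in WT.

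Among the oxygen sensors and HIF subunits, none of 7 was called, and the α subunits divided the KO libraries. Hif1a (GRCm38 chromosome 12, 73901324 to 73947554), which encodes HIF-1α, was at 98.4 CPM in KO replicate 1, above every WT library, and at 22.0 and 30.7 CPM in KO replicates 2 and 3, below every WT library (61.5, 58.6 and 82.6 CPM). With KO libraries on both sides of WT, the difference was -0.42 with an SE of 0.58 (95% interval -1.86 to 1.01, edgeR adjusted p = 0.661). Epas1 (GRCm38 chromosome 17, 86753864 to 86833410), which encodes the paralog HIF-2α, ran the other way: 7.60, 25.8 and 24.4 CPM in KO, with replicate 1 low, and 7.502, 9.36 and 9.49 CPM in WT. Its difference was 1.13 (SE 0.466, 95% interval -0.02 to 2.28, edgeR adjusted p = 0.225). Without KO replicate 1 the differences were -1.34 for Hif1a (edgeR adjusted p = 0.00134) and 1.53 for Epas1 (edgeR adjusted p = 9.35e-05). With the GC and length correction as well they were -0.51 and 1.21 (edgeR adjusted p = 0.00168 and 9.48e-06). The fits without KO replicate 1 called 49.6% of all genes, and 54.2% with the correction. With the correction and all libraries kept, the differences were -0.13 for Hif1a and 0.85 for Epas1 (edgeR adjusted p = 0.790 and 0.237). Hif1a made up 94.0%, 51.5% and 60.6% of the summed TPM of both subunits in the KO libraries and 90.9%, 88.6% and 91.5% in the WT libraries. Markers of mesothelial cells and fibroblasts followed the same libraries as Epas1, with a summed level of 6 detected of 8 markers of 2.09, 18.8 and 30.0 CPM in KO and 4.99 to 7.85 CPM in WT, mostly Col1a1 and Col1a2, while Upk3b and Krt19 were at or near 0. Their part in the Epas1 values was not tested, and in bulk RNA fewer cells of a type and less RNA per cell cannot be told apart.

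Arnt, the shared partner of the α subunits, was at 66.6 ± 6.3 CPM in KO and 63.3 ± 8.92 CPM in WT. Of the prolyl hydroxylases that mark the α subunits for destruction, Egln1 (PHD2) was at 67.7, 94.9 and 81.5 CPM in KO and 69.8 to 74.4 CPM in WT, and Egln2 (PHD1) at 58.4 ± 4.17 and 61.1 ± 9.67 CPM. Egln3 (PHD3), itself raised by HIF, was scarce: 7.21, 1.28 and 1.62 CPM in KO and 1.10 to 1.14 CPM in WT. Its 3.02-fold ratio of means came from KO replicate 1, which had 131 counts where the other 5 libraries had 19 to 31, and without that library the difference was 0.39 (edgeR adjusted p = 0.262). Vhl, the substrate receptor of the ligase, was at 34.9 ± 5.16 and 35.7 ± 1.76 CPM.

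Bnip3l was the called member among the other hypoxia-responsive genes. It (gene ID 12177, GRCm38 chromosome 14, 66985238 to 67008877) was at 108.5, 87.1 and 103.9 CPM in KO and at 180.2, 197.1 and 225.1 CPM in WT. The highest KO library was well below the lowest WT library, and KO replicate 1 lay with the other KO libraries. The means were 99.8 ± 11.3 and 200.8 ± 22.7 CPM, a ratio of 0.497 (log2 -1.01, SE 0.129, 95% interval -1.32 to -0.69, edgeR adjusted p = 0.0234). Its paralog Bnip3, which also sends mitochondria to autophagy and is a classic HIF target, was on the other side: 17.1, 12.5 and 13.3 CPM in KO against 10.9, 9.70 and 11.7 CPM in WT, without overlap and without passing (log2 0.41, SE 0.167, edgeR adjusted p = 0.217). Bnip3 therefore made up 23.8%, 22.2% and 20.3% of the summed TPM of the pair in KO and 10.8%, 8.90% and 9.30% in WT (exact permutation p = 0.1, adjusted p = 0.189). Of 6 platelet markers, all detected, 5 summed to 9.74, 1.28 and 1.93 CPM in KO against 45.5, 89.9 and 72.7 CPM in WT. The remaining marker, Pf4, was at 44.9, 16.2 and 14.5 CPM in KO and 17.6, 21.8 and 17.6 CPM in WT, and all 6 summed to 54.7, 17.5 and 16.5 CPM against 63.0, 111.8 and 90.3 CPM. Erythroid markers, 4 of 6 in the table, summed to 1.79 CPM or less in every library. The part of other cells in the Bnip3l values was not tested.

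The remaining members of this group are secreted factors, regulators and collagen enzymes. Ankrd37, a small HIF target of unclear role, was at 1.596, 0.770 and 1.15 CPM in KO and 0.349, 0.289 and 0.420 CPM in WT, on counts of 29, 15 and 22 against 6, 5 and 7 (log2 1.71, SE 0.392, edgeR adjusted p = 0.0741). Its WT counts were under the filter's minimum of 10. It therefore entered the test, and the members without overlap, only through the KO libraries, where it was high. Adm, the vasodilator adrenomedullin, had 2, 17 and 14 counts in KO and 3, 0 and 2 in WT and was too scarce to be tested. Vegfa, the vessel growth factor, was at 203.7, 69.9 and 66.2 CPM in KO and at 109.4, 99.9 and 109.8 CPM in WT, on either side of WT as for Hif1a. Ndrg1, a stress-response protein raised by hypoxia, was at 172.9 CPM in KO replicate 1 and between 72.7 and 85.3 CPM in the other 5 libraries. Mxi1, an antagonist of MYC, was at 30.7, 53.7 and 49.4 CPM in KO and 36.5 to 39.2 CPM in WT. P4ha1, a collagen prolyl hydroxylase subunit, was higher in every KO library, at 102.2 ± 8.57 against 87.7 ± 3.93 CPM (edgeR adjusted p = 0.236), and P4ha2 overlapped at 19.97 ± 2.92 and 22.2 ± 2.57 CPM.

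**Figure D3:**
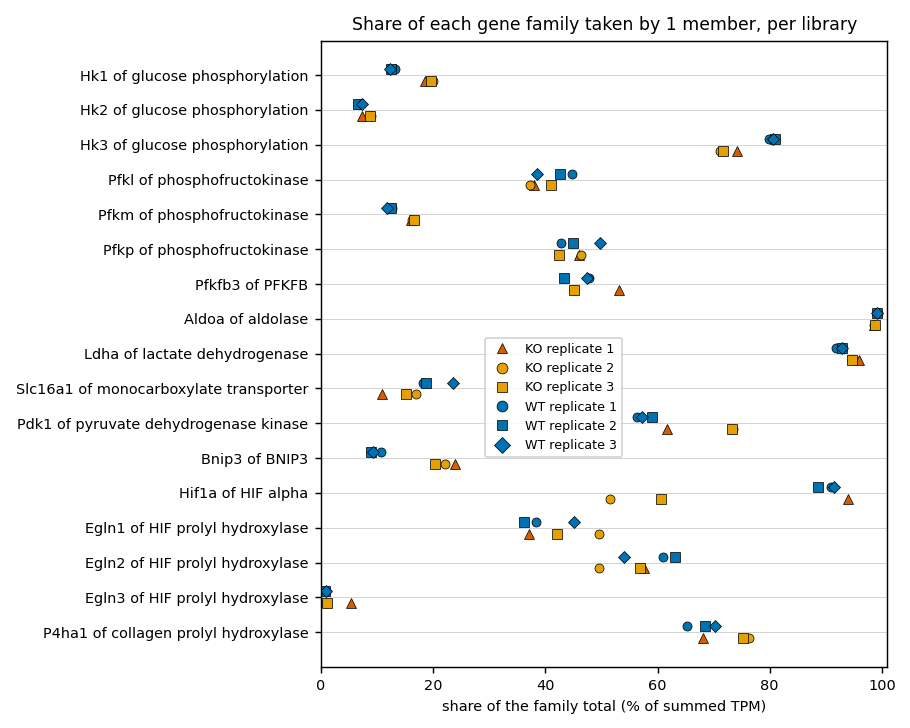
Share of the summed TPM of a gene family held by 1 member (x axis, percent) for 17 shares in 11 families (y axis), with 1 point per library and the WT libraries drawn just above the KO libraries of the same row. The labels do not overlap for 9 of the 17 shares, among them Hk1 and Hk3, Pfkm, Ldha, Pdk1 and Bnip3, while the Hif1a share is at 51.5% and 60.6% in KO replicates 2 and 3 and at 88.6% or more in the other 4 libraries.

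Over the 11 families, 9 of 17 shares did not overlap between the labels, each at the exact permutation p of 0.1 that the design allows at best. The 9 are not separate results, as 3 are hexokinase shares of 1 sum. Those of Hk1, Pfkm and Bnip3 also draw on the called members. For comparison, the CPM of 31% of all genes tested did not overlap, a share counted over genes and not over family shares. Beside those given, they were Aldoa of the aldolases, at 98.6% ± 0.150 in KO and 99.2% ± 0.0508 in WT, and Slc16a1 of the monocarboxylate carriers, at 14.3% ± 3.10 and 20.2% ± 2.95. Egln1, Egln2 and Egln3 within the prolyl hydroxylases, Pfkfb3 within its pair and P4ha1 within its pair overlapped.

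The order of the levels was much the same under both labels. By mean TPM in WT, Gapdh (1736 ± 88.2), Pkm (1606 ± 62.7), Aldoa (1525 ± 51.9), Taldo1 (1444 ± 143) and Pgd (976.3 ± 65.7) led, followed by Pgam1 at 610.0 ± 19.2, Eno1 at 489.6 ± 25.7, Ldha at 484.3 ± 13.4 and Pgk1 at 393.8 ± 13.2. By mean TPM in KO, the same 9 genes held the first 9 ranks in the same order, with Eno1 at 551.4 and Ldha at 549.1. Single KO libraries departed from it: Ldha was above Eno1 in KO replicates 2 and 3, and Pgk1 above Ldha in KO replicate 1. Neighbours in this order were often within their SDs, as with Aldoa and Taldo1 or Eno1 and Ldha in WT. Transaldolase and phosphogluconate dehydrogenase thus stood among the most abundant transcripts of the set, with G6pdx at 266.2 ± 21.2 TPM and Tkt at 239.6 ± 2.37 TPM. Scarce members in WT were Epas1 at 2.59 ± 0.424 TPM, Ankrd37 at 0.740 ± 0.128 TPM, Egln3 at 0.690 ± 0.0436 TPM and Adm at 0.130 ± 0.115 TPM. All 44 together held 1.45%, 1.07% and 1.05% of the TPM in KO and 1.16%, 1.12% and 1.10% in WT. On the TPM scale the median log2 ratio of all genes was itself shifted by 0.14 towards KO, and that of the members by 0.25, which is why differences between the labels are given in CPM.

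**Figure D4:**
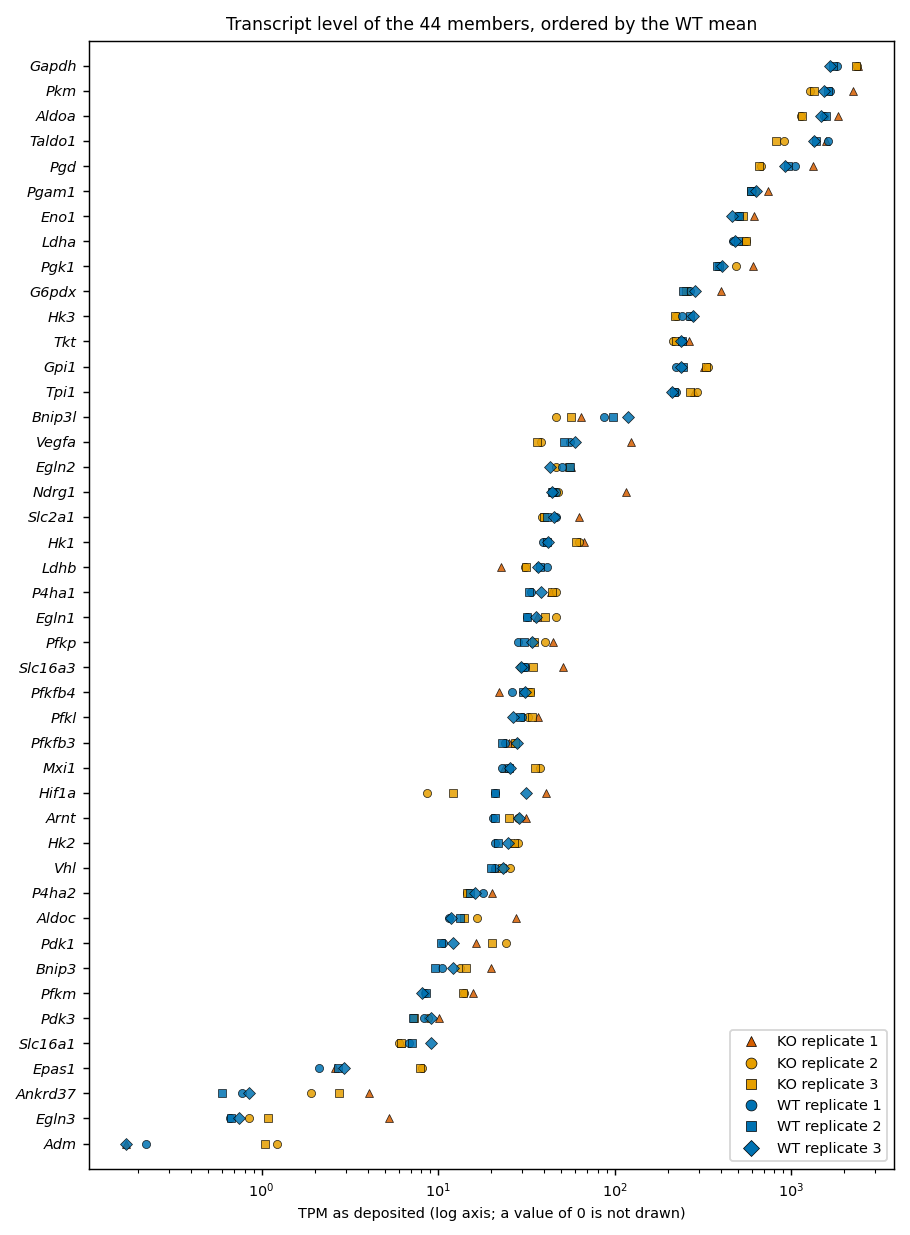
Deposited TPM (x axis, log scale) of the 44 members in each of the 6 libraries (points), ordered by the WT mean (y axis); a value of 0, as for Adm in WT replicate 2, is not drawn. Levels run from under 1 TPM for Adm, Egln3 and Ankrd37 in WT to 1736 TPM for Gapdh, and most members keep the 6 libraries close together on this scale.

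KO replicate 1 differed from the other KO libraries for many members. It was the highest of the 6 libraries for 17 of 43 members, or 39.5%, against 20.4% of all genes tested, and the lowest for 8, against 20.6% of all genes. A gap of at least 2-fold to the mean of KO replicates 2 and 3 was seen for 5 members, or 11.6%, against 19.6% of all genes. KO replicates 2 and 3 did not differ by 2-fold for any tested member. The 5 were Egln3 at 4.97 times the mean of the other KO libraries, Hif1a at 3.73 times, Vegfa at 2.99 times, Ndrg1 at 2.29 times and Epas1 at 0.303 times. With KO replicate 1 left out, 22 of 44 members were called, 12 higher and 10 lower, but so were 49.6% of all genes (23.6% higher, 26.0% lower), so the share of the members was near the background. Those higher in that fit were Hk1, Gpi1, Pfkm, Tpi1, Gapdh, Pdk1, Epas1, Egln1, Adm, Ankrd37, Mxi1 and P4ha1. Adm entered that fit, hence 44 members and not 43, only through its 17 and 14 counts in KO replicates 2 and 3. Its call there, and with the GC and length correction added, was therefore favoured by the filter. Those lower were Hk3, Aldoa, Pkm, Ldhb, Slc16a1, Pgd, Taldo1, Hif1a, Bnip3l and Vegfa. Dendritic cell markers were at 8.53 CPM summed in KO replicate 1, mostly Cd209a at 7.38 CPM, against 0.257 to 1.56 CPM in the other libraries. The list was mixed there. Flt3 at 0.77 CPM and Xcr1 at 0.055 CPM were also the highest of the 6 libraries. Zbtb46 at 0.11 CPM and Clec9a at 0.22 CPM were below WT, which had 0.35 to 0.48 and 0.47 to 1.10 CPM. The part of this library's make-up in its values was not tested.

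**Figure D5:**
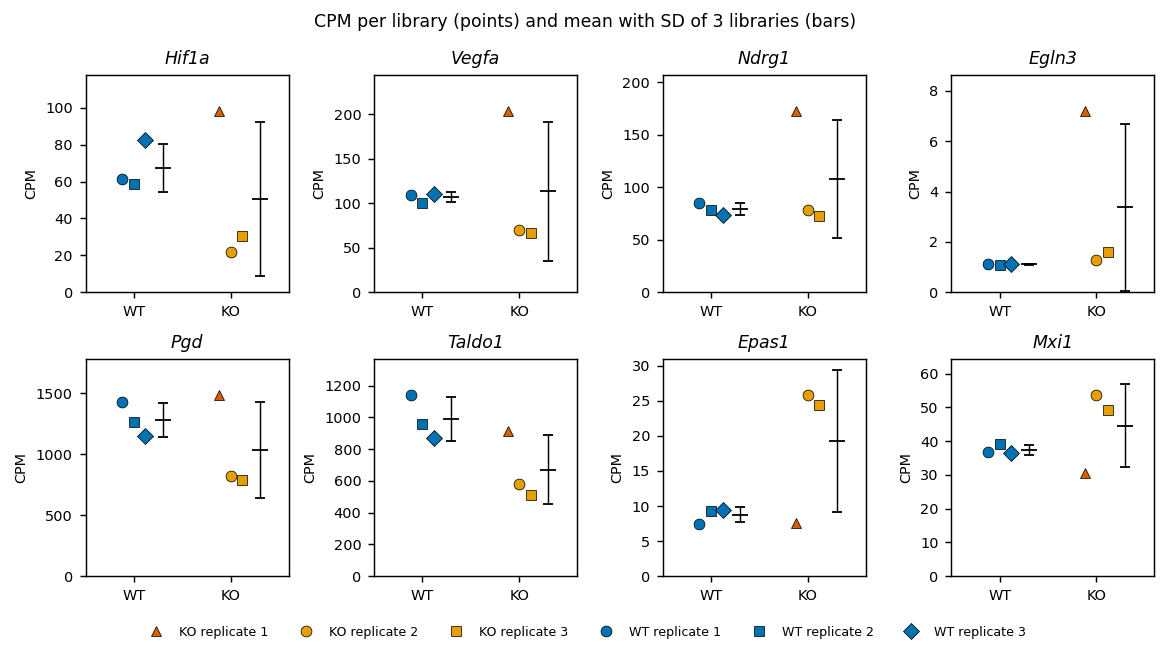
CPM (y axis, from 0) of 8 members for which KO replicate 1 (triangle) lay away from KO replicates 2 and 3; points are libraries and bars are the mean with the SD of 3 libraries. Hif1a and Vegfa in KO lie on either side of the WT libraries (98.4 against 22.0 and 30.7 CPM for Hif1a), Egln3 and Ndrg1 are high in KO replicate 1, and Epas1 there, at 7.60 CPM, is at the WT level.

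The 3 calls held without KO replicate 1 and were lost without any other single library. Without KO replicate 1 the edgeR adjusted p was 0.00101 for Hk1, 0.00183 for Pfkm and 0.000322 for Bnip3l. Without any other single library it was 0.117 to 0.234 for Hk1, 0.132 to 0.243 for Pfkm and 0.0822 to 0.156 for Bnip3l, with the direction kept each time. The fit without KO replicate 1 called 49.6% of all genes, and those without another library called 0.0427% to 0.13%. Neither the holding nor the loss of a call is therefore particular to these genes. Correcting for GC content and length also ended the 3 calls, with log2 differences of 0.31, 0.47 and -0.53 (edgeR adjusted p = 0.1, 0.0947 and 0.119). In that fit Ldhb was called lower at -0.73 (edgeR adjusted p = 0.0223, where 2.38% of genes were called lower) and Bnip3 higher at 0.95 (edgeR adjusted p = 0.0232, where 2.62% were called higher). With that correction and without KO replicate 1, 32 of 44 members were called, 9 higher and 23 lower, or 20.5% and 52.3%, where 54.2% of all genes were, 19.6% higher and 34.6% lower. The median difference of the members was then -0.23 against -0.12 over all genes. Hk1, Pfkm and Bnip3l were at 0.25, 0.36 and -0.33 in that fit (edgeR adjusted p = 0.0101, 0.00746 and 0.00385). DESeq2 called 6 members among 8.7% of genes: Hk1, Pfkm and Pdk1 higher (5.73% of genes) and Hk3, Slc16a1 and Bnip3l lower (2.97%). With limma-voom, which called 3.11% of genes, the members called were again Hk1, Pfkm and Bnip3l. In the authors' deposited table, 5 of the 44 members had a q under 0.05, where 8.02% of 15442 genes did: Hk1, Pfkm and Pdk1 higher (5.28% of genes), Slc16a1 and Bnip3l lower (2.73%).

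Other genes of the same pathways were examined by lists of 95 symbols, of which 85 were in the table and 74 were tested. Of these, 3 were called higher and 2 lower, or 6.76% against 3.32% of all genes. Among 13 further genes of glycolysis and gluconeogenesis, 1 was called: Pck2, the mitochondrial phosphoenolpyruvate carboxykinase, at 47.2 ± 7.22 CPM in KO and 20.5 ± 2.17 CPM in WT (log2 1.21, edgeR adjusted p = 0.0219). Among 19 genes of transport and pyruvate entry, 1 was higher and 1 lower. Mpc1, a subunit of the carrier that takes pyruvate into mitochondria, fell to 72.7 ± 6.95 CPM from 148.9 ± 7.90 CPM in WT (log2 -1.03, edgeR adjusted p = 0.0147). Pcx, the pyruvate carboxylase that makes oxaloacetate, was at 13.8, 6.93 and 8.55 CPM in KO and 3.26, 3.004 and 2.82 CPM in WT (log2 1.69, edgeR adjusted p = 0.0450). None of 8 further pentose phosphate genes was called, the smallest p being that of H6pd, which makes NADPH in the endoplasmic reticulum, at 121.1 ± 6.67 and 147.3 ± 12.9 CPM (edgeR adjusted p = 0.165). Among 34 further hypoxia-linked genes, Hilpda, a lipid droplet protein that blocks lipolysis, fell to 5.88 ± 0.215 CPM from 12.5 ± 2.02 CPM in WT (log2 -1.09, edgeR adjusted p = 0.0364). Narf, a nuclear protein of the prelamin A pathway, rose to 34.6 ± 1.80 CPM from 23.9 ± 1.02 CPM (log2 0.53, edgeR adjusted p = 0.0450). The GC and length correction ended the calls of Narf (log2 0.29, edgeR adjusted p = 0.231) and Pcx (log2 1.55, edgeR adjusted p = 0.0574), limma-voom that of Pcx (adjusted p = 0.0689), and testing with no filter that of Narf (edgeR adjusted p = 0.0532). None of the 5 was called when any library other than KO replicate 1 was left out, where 0.0427% to 0.13% of all genes were called. Without KO replicate 1 the count was 33 of 75, or 44%, where 49.6% of all genes were called.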

How the data were processed

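Messenger RNA of sorted macrophages was captured, fragmented and sequenced, per the labels' protocols; fastp 0.18.0 and the build GRCm39 are named in the submitters' processing notes, but the coordinates in the table are those of GRCm38, with the RefSeq range for 34 of the 44 members. The sources used here name no aligner, counting program or strand setting. Estimated counts per gene and library and TPM values were deposited by the authors in 1 table, per the file headers; 4.82% to 5.49% of the count cells of a library were not whole, and they were rounded. The authors' deposited log2 fold changes and q-values were used only for the calls credited to it.

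Genes kept by filterByExpr (minimum count 10) were scaled by TMM and tested with edgeR 4.0.16 (robust quasi-likelihood, group as the only term, R 4.3.3). Calls are at an adjusted p under 0.05 over 11424 genes. Alternatives planned were upper-quartile or RLE factors, limma-voom (limma 3.58.1), DESeq2 1.42.0, keeping all genes or those averaging 10 CPM, a block on replicate number, leaving out each library, an adjusted p under 0.01 and family shares from other transcript lengths. A GC and length correction (mgcv 1.9.3), alone and without KO replicate 1, was added after seeing the data.

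The members and lists were chosen with earlier results of these data known. All members could be named; from each other list, up to 3 called genes by size averaging 1 CPM or more, or the smallest p where none was called. Of the marker lists not given above, B cell, T and NK cell and mast cell markers summed to 3.41 CPM or less in every library, and neutrophil markers to 78.8 to 137.1 CPM, nearly all Csf3r.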

Additional observations from a re-analysis of the deposited data

How the results depend on the processing

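Under RLE factors, upper-quartile factors, limma-voom, no filter and a mean of at least 10 CPM the members called stayed at 3, the same 3 genes. DESeq2 called 6 members and 11 other pathway genes, adjusted p under 0.01 called 0 and 0, and a mean of at least 10 CPM left 3 other pathway genes. Over all genes the number called was 379, and it was 1344 by DESeq2, 229 at 10 CPM, 571 with the GC and length correction, 6331 with that correction and without KO replicate 1, and 15 at an adjusted p under 0.01. Leaving out 1 library gave 5 to 5793 genes, 0 to 22 members and 0 to 33 other pathway genes, the highest each time without KO replicate 1. The correction without KO replicate 1 called 32 members and 44 other pathway genes. Calls higher in KO were 68.1% of all calls, 52.4% with the GC and length correction and 47.7% without KO replicate 1.

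With the replicate number as a block, edgeR called 0 genes, 0 members and 0 other pathway genes, where Hk1, Pfkm and Bnip3l had adjusted p of 0.175, 0.178 and 0.117 (an unadjusted p under 0.05 was reached by 1976 genes, 8 members and 17 other pathway genes). Deviations from the group means correlated at -0.162, 0.246 and -0.271 between same-numbered KO and WT libraries. With KO replicate 1 far from the other KO libraries, these values cannot tell whether same-numbered libraries are paired. The labels name no pairing.

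Differences of members that were not called changed sign in some fits, and the cause was not tested. With the GC and length correction, and then also without KO replicate 1, the log2 differences were -0.094 and -0.11 for Hk2, -0.044 and -0.14 for Pfkl, -0.025 and -0.18 for Pfkp, -0.086 and -0.23 for Eno1, -0.16 and -0.23 for Ldha, -0.15 and -0.50 for G6pdx, -0.10 and -0.24 for Arnt, and -0.065 and -1.03 for Vegfa. With the correction alone Egln1 was at -0.024. With both, Aldoc was at -0.14, Pgk1 at -0.27, Slc16a1 at 0.14, Slc16a3 at -0.28 and Ndrg1 at -0.42. Upper-quartile factors gave 0.026 for Pfkfb3 and 0.035 for Vhl, and Vegfa was at -0.12 by limma-voom and -0.12 with the block. Leaving out 1 library gave ranges of -0.26 to 0.0018 for Slc2a1, -0.12 to 0.054 for Pfkfb3, -0.25 to 0.10 for Pfkfb4, -0.066 to 0.037 for Eno1, -0.026 to 0.10 for Ldha, -0.022 to 0.28 for Slc16a3, -0.16 to 0.0050 for Pdk3, -0.14 to 0.11 for G6pdx, -0.0062 to 0.19 for Arnt, -0.19 to 0.0010 for Egln2, -0.16 to 0.092 for Vhl, -0.63 to 0.33 for Vegfa and -0.054 to 0.63 for Ndrg1. Family shares without overlap numbered 9 with other transcript lengths and 9 to 12 with 1 library left out.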
